A study of Mus musculus with 8 samples.

Results

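The ribosome is built from a small subunit, which reads the mRNA, and a large subunit, which joins amino acids, and its proteins are made in matched amounts because each subunit holds a single copy of nearly every one. Most of their mRNAs begin with an oligopyrimidine tract, the 5′ TOP element, through which mTOR and Larp1 set how much of each mRNA is translated. In neurons ribosomes also work in dendrites and axons, and several ribosomal proteins have known roles outside the ribosome, such as the binding of Mdm2 by Rpl5 and Rpl11.

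The genes described are the cytosolic ribosomal protein genes: those with a symbol of Rps or Rpl followed by a number and at most one of the letters a, x, y or l, together with Rpsa, Rplp0, Rplp1 and Rplp2, and with at least 800 counts over all libraries. Of the 56748 genes in the count table, 83 had such a symbol and 78 met the count minimum, 32 of the small and 46 of the large subunit. All 78 passed the filter on low counts and were among the 21588 genes tested. Just inside the minimum were Rps10 with 967 counts and Rps4l with 3891, and below it were Rpl24 with 434, Rpl32l with 201, Rpl3l with 122, Rpl39l with 86 and Rpl10l with 0.

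Polyadenylated RNA of pulverised frozen forebrain was sequenced from TgCRND8 mice (Tg), which overexpress the amyloid precursor protein APP, and from their non-transgenic littermates (NTg), all aged 18 months, in 4 libraries of each genotype. As background, the transgene of this line is a mutated human APP driven by the hamster prion promoter, and the mice form amyloid plaques. Libraries held 57129090 to 65242741 counts. Whether the libraries of a genotype come from different animals is not stated outright in the labels. If they do not, the p-values measure only library spread, which may be technical. App, to which reads of a human transgene can align in part, stood at 1390 to 1623 CPM (read counts relative to library size, after TMM scaling) in NTg and 2532 to 2980 CPM in Tg. In bulk tissue fewer cells of a type and less RNA per cell cannot be told apart. The 10 microglial markers summed to 455 to 595 CPM in NTg and 630 to 1045 CPM in Tg, and the 6 choroid plexus markers to 600 to 914 CPM in NTg and 308 to 572 CPM in Tg. Of single markers, 10 of 10 for microglia had a fold change above 1 and 6 of 6 for choroid plexus one below 1, and no marker of either list passed the test. Markers of neurons were detected throughout, at summed levels of 5425 to 5824 CPM in NTg and 4957 to 5688 CPM in Tg. Of astrocyte markers 6 of 7 had a log2 fold change above 0 (median 0.12), while 6 of 6 for oligodendrocytes (median -0.15), 5 of 5 for endothelium (median -0.33) and 5 of 5 for red blood cells (median -0.82) lay below 0, and none of them was called. What these lists contribute to the ribosomal protein values was not tested. Tg replicate 1 stood apart from the other Tg libraries, with the microglial sum of 630 CPM against 1004 to 1045 CPM and the red blood cell sum of 3003 CPM against 448 to 732 CPM. Without it the counts given below for the family changed little: 0 ribosomal protein genes were called, 66 lay above a fold of 1 and the median log2 fold change was 0.05.

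The start sites were searched for pyrimidine tracts of the kind that opens a TOP mRNA, and are printed for genes the results turn on. In the RefSeq promoters of build GRCm38.p6, which 56 of the 78 genes matched, a tract was counted where a C lying within 5 bases of the annotated start was followed by 4 or more C or T without a break, on the mRNA-sense strand alone. It was present in 28 of the 56 genes (50%) and in 5718 of all 27025 genes with a promoter (21.2%). A tract whose C is the annotated first base itself was counted in 13 genes (23.2%) and in 813 of all (3.01%). Of the genes printed below, Rpl14 and Rps15a are among these 13, and Rps2, Rps26 and Rps9 are not. Whether a marked tract acts as a TOP element was not tested. In the lines that follow, each run holds 40 bases before the annotated start and 20 from it on, and capitals mark the tract.
Rps2, chr17:24720023-24720082, + strand: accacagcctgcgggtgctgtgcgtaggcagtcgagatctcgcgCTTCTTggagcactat
Rpl14, chr9:120571477-120571536, + strand: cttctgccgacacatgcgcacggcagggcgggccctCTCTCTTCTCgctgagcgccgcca
Rps26, chr10:128626487-128626546, - strand: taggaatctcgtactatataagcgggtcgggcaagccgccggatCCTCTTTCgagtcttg
Rps9, chr7:3704001-3704060, + strand: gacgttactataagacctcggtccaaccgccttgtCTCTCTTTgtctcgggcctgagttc
Rps15a, chr7:118116128-118116187, - strand: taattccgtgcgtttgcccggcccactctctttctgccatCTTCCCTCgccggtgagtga
Rplp0, chr5:115559427-115559486, + strand: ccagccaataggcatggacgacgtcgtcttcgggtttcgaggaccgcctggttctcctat
Rpl10, chrX:74270776-74270835, + strand: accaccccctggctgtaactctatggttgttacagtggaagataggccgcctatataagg
Rplp0 and Rpl10 have no tract by this definition near the start that RefSeq gives. The 28 genes with a tract and the 28 without one had close medians of the fitted log2 fold change between genotypes, 0.04 in the former and 0.06 in the latter.

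No ribosomal protein gene passed edgeR's quasi-likelihood F test between the genotypes, with Benjamini-Hochberg adjustment over all genes tested. Of the 78, 0 were called, beside 3 of 21588 genes in all (0.0139%). At an unadjusted p under 0.05 there were 4 ribosomal protein genes (5.13%), all higher in Tg, namely Rplp0, Rpl14, Rpl10 and Rpl10a, while 4.68% of all genes were higher at that level. DESeq2 and limma-voom also called 0 of the 78. Every fold change is given as Tg over NTg.

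The fitted changes were small and mostly on the same side. The log2 fold change was above 0 for 65 of the 78 genes, against 49.2% of all genes tested, and it was under 0.1 in size for 68 of them. Its median was 0.04, a change of 3.00%, with a range of -0.09 in Rps4l to 0.26 in Rpl29, and the median over all genes was -0.0024. Among the 4619 genes with at least 50 CPM in NTg, the level of most ribosomal protein genes, 1417 had a log2 fold change above 0 and the median was -0.03. The side depends in part on scaling: with library totals alone in place of TMM factors, 76 of the 78 (97.4%, in place of 83.3%) lay above 0, and the median of all genes moved to 0.02. The median SE of a single gene was 0.054, so the typical shift was smaller than the error of any 1 gene. For 74 of the 78 the 95% interval of the fold change lay within 1.25-fold in either direction. The exceptions were Rps10, Rps4l, Rpl26 and Rpl29.

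**Figure D1:**
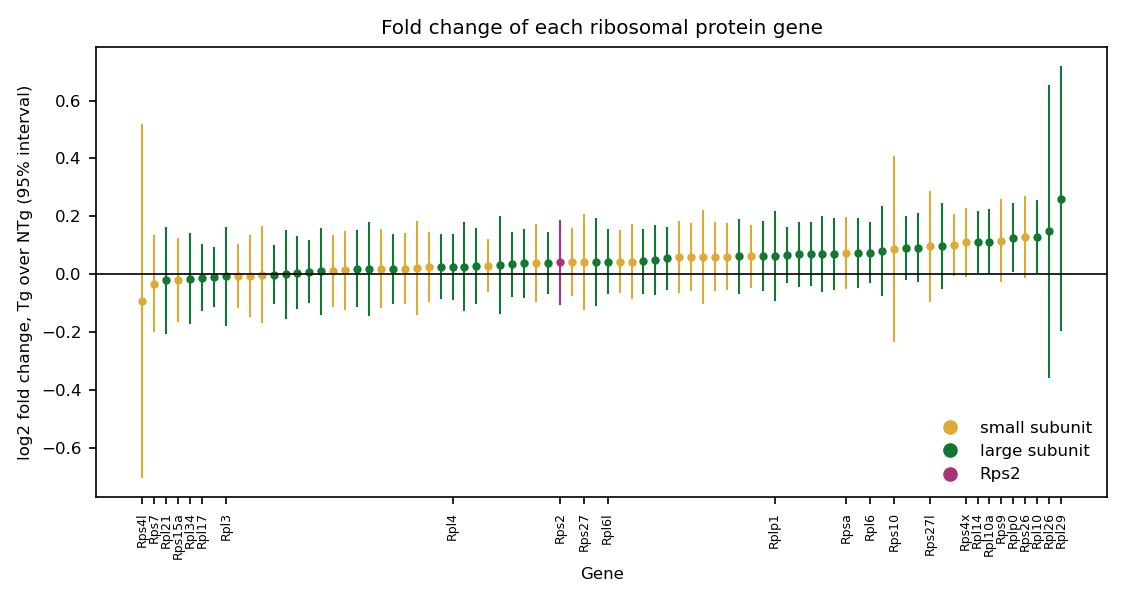
Fitted log2 fold change, Tg over NTg, of each of the 78 ribosomal protein genes on the vertical axis, with its 95% interval as a line, genes in order of the value and names for 25 of them. Points run from -0.09 in Rps4l to 0.26 in Rpl29, and 4 intervals lie above 0, none of them from a gene that passed the adjusted test.

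The family moved together from library to library, and this movement crossed the genotypes. Summed over all 78 genes, the level was 11109, 12018, 11453 and 12241 CPM in NTg replicates 1 to 4 and 11892, 11632, 12279 and 12556 CPM in Tg replicates 1 to 4. The mean was 11705 ± 518 CPM for NTg libraries and 12090 ± 409 CPM for Tg libraries (SD, n = 4), and the ranges overlapped. NTg replicates 1 and 3 were low and NTg replicates 2 and 4 high, with Tg replicate 2 among the lower and Tg replicates 3 and 4 at the top. The SD of either genotype was larger than the difference between the means.

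Single genes followed the same order. NTg replicate 1 held the lowest value of the 8 libraries for 44 genes and NTg replicate 3 for 22, whereas Tg replicate 4 held the highest for 31 and NTg replicate 4 for 27. In 57 of the 78 genes both NTg replicates 1 and 3 lay below both NTg replicates 2 and 4. Relative to the mean log2 CPM of NTg, 8, 69, 15 and 64 genes were higher in NTg replicates 1 to 4, and 51, 36, 66 and 73 in Tg replicates 1 to 4. Each genotype thus held libraries with most of the family high. Most of the family was low in NTg replicates 1 and 3. The lowest Tg library, replicate 2, stood near the NTg mean, at a mean log2 difference of -0.0038.

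**Figure D2:**
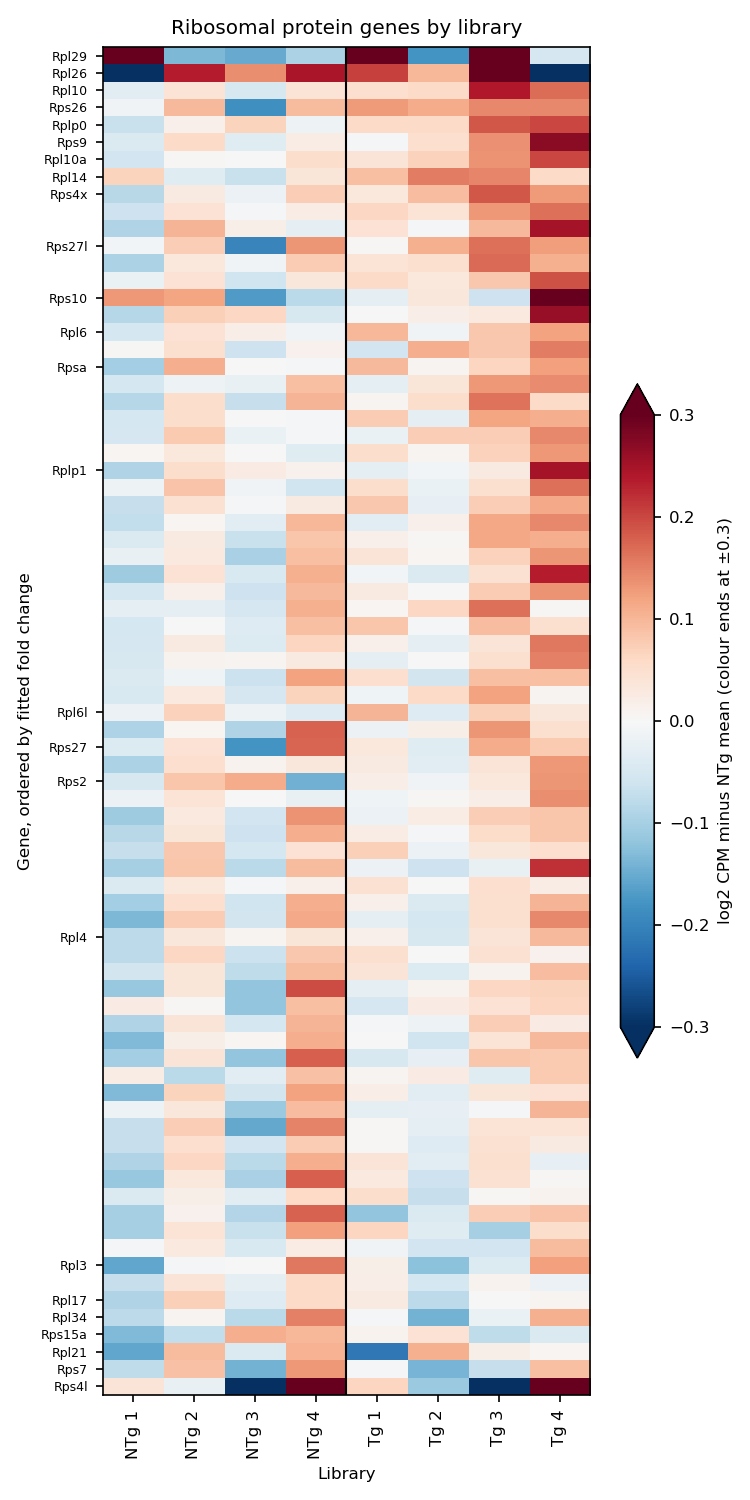
Heat map of log2 CPM minus the mean log2 CPM of NTg for 78 ribosomal protein genes (down, in order of fold change, 25 of them named) in 8 libraries (across), with colours that end at 0.3 in either direction. NTg replicates 1 and 3 are mostly blue, for a low level, and NTg replicate 4 and Tg replicates 3 and 4 mostly red.

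The proportion of the subunits varied little between libraries. Small subunit genes summed to 4663 ± 222 CPM in NTg and 4798 ± 162 CPM in Tg, and large subunit genes to 7042 ± 298 and 7292 ± 250 CPM. The ratio of small to large was 0.664, 0.661, 0.654 and 0.670 in NTg and 0.658, 0.661, 0.650 and 0.663 in Tg, with the genotypes interleaved. A log2 fold change above 0 was found for 26 of 32 small subunit genes, with a median of 0.04, and for 39 of 46 large subunit genes, with a median of 0.04.

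**Figure D3:**
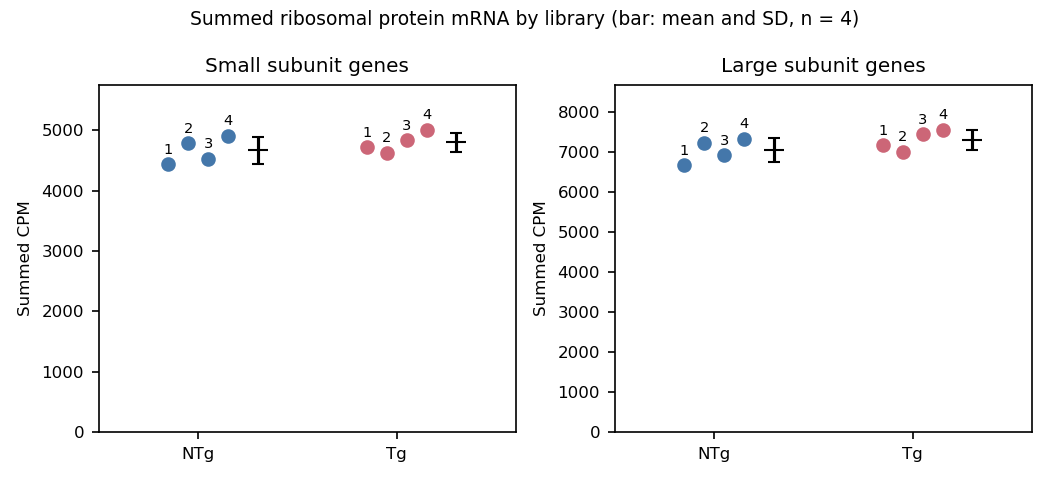
Summed CPM of 32 small subunit genes (left) and 46 large subunit genes (right) for each library, numbered by replicate, with the mean and SD of 4 libraries as a bar. In both panels the Tg libraries sit inside or just above the NTg range.

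Rps2 lies at the mRNA entry side of the small subunit and is the known substrate of the arginine methyltransferase Prmt3, which methylates its glycine- and arginine-rich end. Its level was 228, 250, 255 and 214 CPM in NTg replicates 1 to 4 and 239, 234, 241 and 259 CPM in Tg replicates 1 to 4. The highest Tg library was barely above the highest NTg library and the remaining Tg libraries were inside the NTg range. The means were 237 ± 19.3 and 243 ± 10.6 CPM (SD, n = 4), with a log2 fold change of 0.04, an SE of 0.06 and a 95% interval of -0.10 to 0.18 (edgeR adjusted p = 0.961). Its change was close to the family's median, also 0.04.

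Prmt3 itself was 1 of the 3 genes called. It stood at 23.8, 24.2, 25.6 and 24.7 CPM in NTg and at 13.9, 13.7, 13.7 and 13.3 CPM in Tg, without overlap (log2 fold change -0.85, SE 0.05, edgeR adjusted p = 0.000242). In the same libraries the interval above covers only the reads counted under Rps2 itself. Near-identical copies, described below, held 78.0% of the counts of Rps2 and its copies together. With the copies added the log2 fold change was 0.14. Of the other known partners of Rps2, Pdcd2l, a chaperone-like protein, had a mean of 12.0 CPM in NTg and 11.5 CPM in Tg. Zfp277, a zinc finger protein that competes for Rps2, had 18.7 and 19.6 CPM, and Aamp, a cytoplasmic partner, had 102 and 99.1 CPM. Among 10 tested genes of partners and ribosomal protein chaperones, Prmt3 was the single call. Counts carry no information on methylation of the Rps2 protein.

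The largest changes among the small subunit genes stayed under the threshold. Rps26, which contacts the mRNA at the exit channel, had 71.2, 76.7, 63.1 and 76.6 CPM in NTg and 78.4, 77.5, 79.3 and 79.2 CPM in Tg. All 4 Tg libraries lay above the NTg libraries, by a margin of under 1 CPM to the nearest, and NTg replicate 3 was lowest (log2 fold change 0.13, SE 0.06, edgeR adjusted p = 0.715). Rps26 and Rpl10 showed such a separation among the 78 (2.56%), beside 2.62% of all genes. In the opposite direction 0 genes of the family were separated, beside 1.58% of all genes. Rps9, at the decoding side of the subunit, had 153, 164, 154 and 160 CPM in NTg and 157, 163, 173 and 190 CPM in Tg, so that Tg replicates 3 and 4 stood above all others (log2 fold change 0.12, SE 0.06, edgeR adjusted p = 0.774). Without Tg replicate 4 its log2 fold change was 0.06. Rps4x, an X-linked gene that escapes inactivation in humans, had means of 215 and 232 CPM (log2 fold change 0.11, SE 0.05, edgeR adjusted p = 0.706).

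At the lower end of the small subunit the fitted changes were near 0. Rps7 had 166, 186, 158 and 191 CPM in NTg and 174, 159, 167 and 186 CPM in Tg, with overlapping groups and a log2 fold change of -0.03, which became 0.03 with its near-identical copies added. Rps15a, at -0.02, had 138, 143, 163 and 162 CPM in NTg against 152, 156, 143 and 146 CPM in Tg. Rps6, the substrate of the S6 kinases and a common readout of mTOR signalling, had means of 264 and 272 CPM, and Rpsa, also known as a laminin receptor, 335 and 352 CPM. Rps27 had 114 and 117 CPM.

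The 4 smallest p-values of the family belonged to large subunit genes. Rplp0, the base of the P stalk that recruits translation factors, had 152, 160, 166 and 157 CPM in NTg and 165, 165, 181 and 182 CPM in Tg. Its NTg replicate 3 lay above Tg replicates 1 and 2, and the change of 9.17% had the smallest adjusted p of the family (log2 fold change 0.13, SE 0.05, unadjusted p = 0.0364, edgeR adjusted p = 0.617). The other stalk proteins were Rplp1, with 343 and 359 CPM, and Rplp2, with 89.4 and 93.7 CPM, which had log2 fold changes of 0.06 and 0.07. None of the 3 stalk genes was called, and without Tg replicate 4 the log2 fold change of Rplp1 was -0.0046.

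Rpl10, which closes the late assembly of the large subunit and contacts the tRNA, had 224, 236, 222 and 236 CPM in NTg and 237, 239, 271 and 257 CPM in Tg. The groups did not overlap, with Tg replicates 3 and 4 highest and Tg replicates 1 and 2 close to the nearest NTg libraries (log2 fold change 0.13, 95% interval 0.01 to 0.25, edgeR adjusted p = 0.624). Rpl14 had 148, 138, 135 and 145 CPM in NTg and 150, 157, 156 and 147 CPM in Tg, and Tg replicate 4 lay below NTg replicate 1 (log2 fold change 0.11, edgeR adjusted p = 0.620). Rpl10a, part of the mobile L1 stalk, had 105, 110, 109 and 113 CPM in NTg and 112, 115, 120 and 126 CPM in Tg, and overlapped by 1 library (log2 fold change 0.11, edgeR adjusted p = 0.657). Rpl5 and Rpl11, which carry 5S rRNA into the subunit and bind Mdm2 when assembly fails, had log2 fold changes of 0.07 and 0.03, with edgeR adjusted p of 0.88 and 0.954.

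Other groups within the family, 3 to 18 genes each, had medians from 0.0095 to 0.07. Of the 18 members whose human counterparts are mutated in Diamond-Blackfan anaemia, a failure of red cell production, 14 had a log2 fold change above 0, with a median of 0.04. Of the 4 X-linked genes, Rpl10, Rpl36a, Rpl39 and Rps4x, all 4 lay above 0, with a median of 0.07. The exit tunnel genes Rpl4, Rpl17 and Rpl39 gave 0.03, -0.01 and 0.01, with the lowest of these medians. At the lower end of the large subunit, Rpl21 gave -0.02, with 246 and 243 CPM, and Rpl34 gave -0.02, with 92.3 and 91.3 CPM. Their place at the lower end held for the genes alone: copies held 62.8% of the Rpl21 counts, and with copies added the log2 fold change was 0.23 for Rpl21 and 0.04 for Rpl34.

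Counted levels differed widely between members. Per kilobase of coding sequence, known for 76 members, the NTg mean had a median of 293 CPM and quartiles of 230 and 381. The highest levels were those of Rplp1 at 995, Rpl41 at 941, Rps29 at 848 and Rpl39 at 725 CPM per kilobase. The lowest were Rps10 at 3.82, Rpl13a at 25.8, Rps27l at 32.7 and Rpl23a at 82.3. Near-identical copies, described below, held 94.2% of the combined counts for Rps10, 84.3% for Rpl23a, 27.1% for Rpl13a and 0% for Rps27l. Exons of other counted genes covered 28.7% of the exonic bases of Rps10, 62.3% of Rpl23a, 32.8% of Rpl13a and 0% of Rps27l. What this contributes to the low levels was not tested. Without the length scaling the most abundant were Rpl4, with 449 and 457 CPM in NTg and Tg, and Rpl3, with 439 and 436 CPM. The 72 members between 50 and 500 CPM in NTg left 6 below, among them the paralogue forms Rps4l, Rps27l and Rpl6l.

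The paralogue forms were among the members with the lowest levels. Rps4l and Rpl6l have no annotated coding sequence in GENCODE release M21, so near-identical copies were not sought for them. Rps4l had 8.14, 7.80, 4.89 and 12.7 CPM in NTg and 8.29, 7.33, 5.49 and 10.3 CPM in Tg, with the SE the largest of the family (log2 fold change -0.09, SE 0.27). Rps27l, a p53-responsive form of Rps27, had 10.4 ± 1.01 and 11.1 ± 0.528 CPM (log2 fold change 0.10, SE 0.08, edgeR adjusted p = 0.91). Rpl6l had 32.8 and 33.8 CPM, and its parent Rpl6 had 242 and 255 CPM (log2 fold changes 0.04 and 0.07).

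Near-identical copies held much of the family's reads, and here levels moved in steps between libraries. Ribosomal protein genes are known for their many processed pseudogenes. A copy was taken as any other annotated transcript matching at least 80% of a member's coding sequence at 95% identity or more, in GENCODE release M21. Of 76 members with a coding sequence, 69 had a copy with counts, and the 532 copies held 2708172 counts beside 5708719 of the members, or 32.2% of the total. The share exceeded 50% for 11 members, led by Rps10 (94.2%), Rpl23a (84.3%), Rps2 (78.0%, over 18 copies) and Rpl29 (76.4%, over 27 copies). Of all 75-base stretches of a member's coding sequence, the length of 1 read, a median of 83.6% occurred exactly in another annotated transcript, and in 21 members all did. The levels of Rps10, Rpl23a and the like are therefore uncertain, as reads may be counted under either gene.

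The sequences below show how little separates a member from a copy. Each pair is the same 75-base stretch of coding sequence in the gene and in a processed pseudogene, from GENCODE M21, and capitals mark the bases that differ.
Rps2, coding bases 10 to 84: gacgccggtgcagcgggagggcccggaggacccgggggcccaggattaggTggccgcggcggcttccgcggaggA
Rps2-ps13: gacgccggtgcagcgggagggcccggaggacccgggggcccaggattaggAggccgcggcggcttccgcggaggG
Rpl26, coding bases 103 to 177: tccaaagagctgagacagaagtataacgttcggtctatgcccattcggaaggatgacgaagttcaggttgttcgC
Gm15772: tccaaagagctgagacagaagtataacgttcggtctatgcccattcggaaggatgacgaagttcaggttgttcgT
Rpl29, coding bases 1 to 75: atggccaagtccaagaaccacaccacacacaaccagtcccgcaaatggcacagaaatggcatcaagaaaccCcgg
Gm13841: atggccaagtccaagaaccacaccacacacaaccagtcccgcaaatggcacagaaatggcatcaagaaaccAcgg
Over the aligned length the pairs were 97.8%, 99.5% and 99.4% identical.

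Rpl26, which binds the p53 mRNA besides its place near the exit tunnel, had 84.5, 153, 143 and 154 CPM in NTg and 149, 139, 201 and 102 CPM in Tg. Its copy Gm15772 ran the other way, with 160, 118, 113 and 115 CPM in NTg and 117, 109, 51.5 and 192 CPM in Tg. NTg replicate 1 and Tg replicate 4 were low for the gene and high for the copy, and Tg replicate 3 was the reverse. The gene and its copies together spanned just 263 to 315 CPM over the 8 libraries. For the gene alone the log2 fold change was 0.15 with an SE of 0.22 (edgeR adjusted p = 0.96). It became 0.03 with the copies added, -0.02 without NTg replicate 1 and -0.04 without Tg replicate 3.

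Rpl29, a surface protein of the large subunit that is also found bound to heparin, had the largest fold change of the family, with a wide error. It had 94.0, 65.6, 64.9 and 67.4 CPM in NTg and 121, 63.6, 95.1 and 69.6 CPM in Tg (a log2 fold change of 0.26 with an SE of 0.20, edgeR adjusted p = 0.882). Tg replicate 1 was highest, NTg replicate 1 and Tg replicate 3 came next, and the remaining 5 libraries lay between 63.6 and 69.6 CPM. Its copy Gm13841 had 60.6, 103, 103 and 104 CPM in NTg and 16.4, 106, 60.8 and 114 CPM in Tg, lowest in the libraries where the gene was highest. Low and high levels of the copy occurred in both genotypes. The log2 fold change of Rpl29 was -0.13 with the copies added, 0.06 without Tg replicate 1 and 0.41 without NTg replicate 1.

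The Rps2 copies fell into 2 levels. Their sum was 594, 1018, 1039 and 560 CPM in NTg and 619, 937, 987 and 1064 CPM in Tg, so that NTg replicates 1 and 4 and Tg replicate 1 were low together. Rps2 itself kept to 214 to 259 CPM in the same libraries. With the copies added to the gene before the fit, the Rps2 log2 fold change became 0.14, with an edgeR adjusted p of 0.947. The low libraries were 2 of 4 in NTg and 1 of 4 in Tg.

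For Rps26 the size of the change between genotypes moved with 1 library. Its copy Rps26-ps1 had 33.7 CPM in NTg replicate 3, where Rps26 was lowest, and 5.80 to 7.05 CPM in every other library. Gene and copies together had 79.3, 86.1, 104 and 85.4 CPM in NTg and 87.4, 86.4, 88.8 and 88.3 CPM in Tg. These groups overlapped through NTg replicate 3, and the log2 fold change became -0.01. Without NTg replicate 3 the log2 fold change of Rps26 alone was 0.07, in place of 0.13. In the CPM given above, its Tg libraries also lay above the other NTg libraries.

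**Figure D4:**
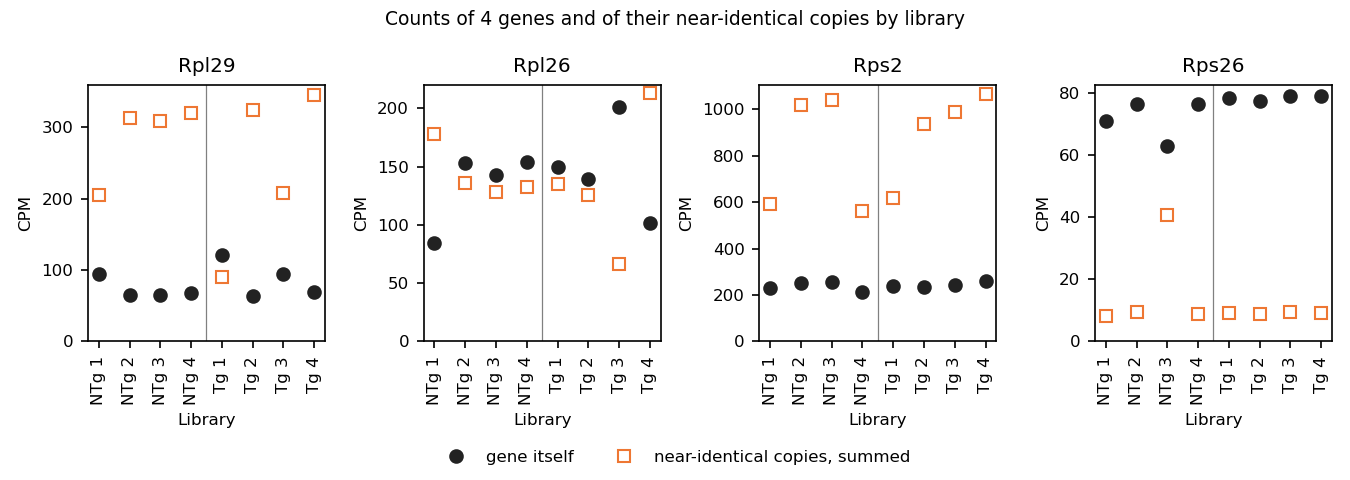
CPM by library of Rpl29, Rpl26, Rps2 and Rps26 (filled circles) and of their near-identical copies summed (open squares), with a line between NTg and Tg. The copies of Rps2 lie at 560 to 619 CPM in 3 libraries and at 937 to 1064 CPM in 5, in both genotypes, while Rps2 itself stays between 214 and 259 CPM.

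Few members showed such steps in their own counts. The highest library exceeded the lowest by more than 1.5-fold in 3 of the 78, Rpl29, Rpl26 and Rps4l, and by 1.17-fold in the median member. Among 172 copies with at least 5 CPM, 50 exceeded 1.5-fold and 27 exceeded 2-fold, with a median of 1.29-fold. With the copies added to every member, 71 of 78 lay above 0, the median was 0.05 and 0 were called.

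Ribosomal proteins outside the naming rule were mostly, but not all, on the same side. Fau, which encodes Rps30 fused to a ubiquitin-like protein, had 133, 137, 137 and 136 CPM in NTg and 146, 142, 149 and 176 CPM in Tg, without overlap (log2 fold change 0.18, SE 0.07, unadjusted p = 0.0242, edgeR adjusted p = 0.532). Rps3a1 had 211 and 231 CPM (log2 fold change 0.13), and Rack1, a signalling scaffold on the small subunit, 150 and 158 CPM. Of 7 such genes 5 had a log2 fold change above 0 and 2 had one below 0, the lowest at -0.12, and none was called.

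Genes that share the ribosome's control or build it had medians from -0.02 to 0.03. Of 16 translation factors with TOP mRNAs, 10 had a log2 fold change above 0, with a median of 0.03. Hnrnpa1 had 236 and 253 CPM and Eef1g 227 and 213 CPM in NTg and Tg. Of 14 genes of the mTOR and Larp1 pathway, which act on TOP mRNAs, 6 were above 0, with a median of -0.02, and Larp1 had 120 and 118 CPM. Of 37 genes for ribosome assembly, 22 were above 0, with a median of 0.0036. The smallest p there was that of Polr1a, the catalytic subunit of RNA polymerase I, with 29.7, 30.7, 27.9 and 29.3 CPM in NTg and 37.7, 31.7, 31.2 and 32.3 CPM in Tg (log2 fold change 0.18, edgeR adjusted p = 0.545).

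None of these 3 lists held a called gene, nor did the 5 that follow. All 6 snoRNA host genes, whose introns carry RNAs that guide rRNA modification, were above 0, with a median of 0.04 and wider errors. Of 9 kinases named after Rps6, 4 were above 0, with a median of -0.02. Among them, Rps6ka1 went from 30.8 ± 3.91 to 37.4 ± 3.66 CPM (log2 fold change 0.28, SE 0.10, edgeR adjusted p = 0.449). Of 9 p53 targets, which respond to free Rpl5 and Rpl11 through Mdm2, 5 were above 0, with a median of 0.10. Their log2 fold changes ran from -0.07 to 0.53, and Bax went from 15.8 to 17.7 CPM (edgeR adjusted p = 0.448). Of 77 mitochondrial ribosomal protein genes, 46 were above 0, with a median of 0.01, led by Mrpl35 with 20.2 and 25.8 CPM (edgeR adjusted p = 0.362). The 13 mRNAs encoded by mitochondrial DNA all lay below 0, with a median of -0.08. By library, their mean log2 CPM minus the NTg mean was -0.19, -0.06, 0.03 and 0.23 in NTg replicates 1 to 4. In Tg replicates 1 to 4 it was 0.0029, -0.09, -0.05 and -0.14, all inside the NTg range.

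Other short mRNAs were set beside the family, library by library. The mean position of the 78 genes relative to NTg was -0.06, 0.04, -0.05 and 0.08 in NTg and 0.03, -0.0038, 0.07 and 0.10 in Tg, on the log2 scale. The 671 other coding genes with no transcript of 1000 bases or more stood at -0.0071, 0.04, -0.04 and 0.01 in NTg and 0.05, 0.03, 0.12 and 0.03 in Tg. The family itself was not held to this length limit. Those short genes had a median log2 fold change of 0.02, between that of the family and that of all genes. Their median SE was 0.153, against 0.054 in the family. Their summed CPM was 42678 ± 3120 in NTg and 41238 ± 1469 in Tg (SD, n = 4), so the sum and the mean log2 position went opposite ways. What transcript length contributes was not tested.

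**Figure D5:**
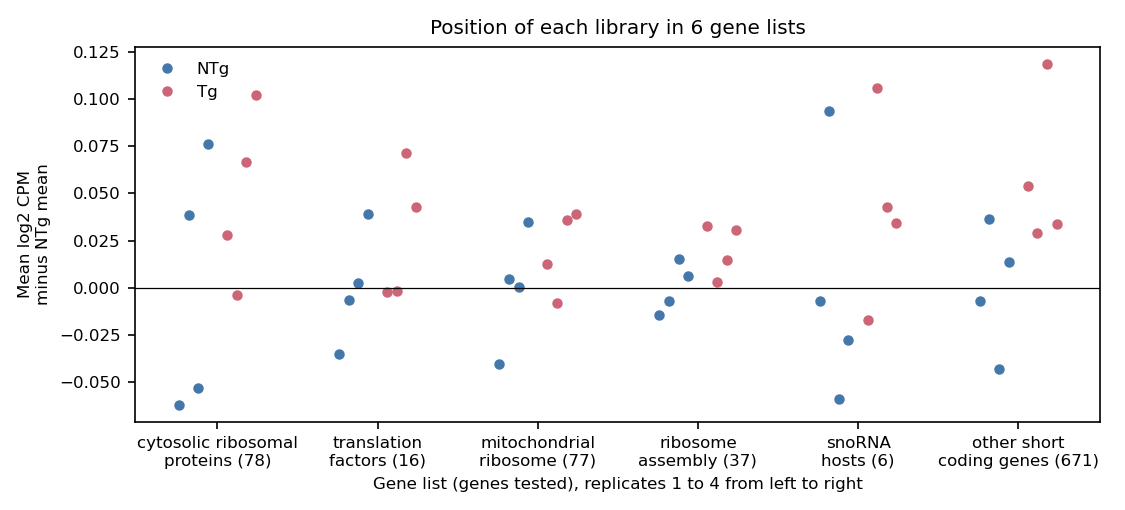
Mean log2 CPM minus the NTg mean, by library, for the ribosomal protein genes, 4 related lists and 671 other short coding genes, with NTg in blue and Tg in red. For the ribosomal protein genes the NTg libraries run from -0.06 to 0.08 and the Tg libraries from -0.0038 to 0.10, and the genotypes overlap in each of the 6 lists.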

How the data were processed

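The authors deposited raw read counts per Ensembl gene, without normalization. The submitters' processing notes name STAR, DESeq2 and build GRCm39, and the sources used here give neither versions nor the counting tool. Per the labels' protocols, TruSeq RNA version 2 libraries, a kit that does not mark strand, were read as 75-base pairs in pools, so overlapping and antisense genes cannot be told apart. The batch tag holds F for all libraries, which could also stand for sex, so it gives no batches to compare. Symbols were matched by identifier for 52073 genes, with 99.6% of counts, and 0 columns belonged to other series.

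Genes were kept by filterByExpr (minimum count 10, minimum total 15), scaled by TMM and tested with edgeR 4.0.16 in R 4.3.3, without covariates, at an adjusted p of 0.05. The SE is the log2 fold change divided by the square root of F. Alternatives used DESeq2 1.42.0, limma 3.58.1, other scaling and filters, a replicate block and each library left out. The procedure was checked on simulated counts. The lowest chi-square per degree of freedom between 2 libraries of a genotype was 7.34, so none was counted as a duplicate.

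The genes and lists were chosen with earlier results of these data known. Named were Rps2, the 6 largest and 6 smallest fold changes, the 4 smallest p, the 4 most abundant, paralogue forms with their parents, genes nearest the count minimum and up to 2 genes of each other list with the smallest p. Some members are not reported here singly. Further members, copies and partners were named after their values were seen, for their role or their pattern. Copies were found with megablast against GENCODE M21, of an older build than the counts.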

Additional observations from a re-analysis of the deposited data

Results flagged for a closer look

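In NTg, Rpl26 had 84.5 CPM in replicate 1, far from the 143 to 154 CPM of the other libraries of that genotype. Rpl29 had 94.0 CPM in the same library, where the others had 64.9 to 67.4 CPM. Both gaps were too large a part of the group's range by Dixon's test for 4 values, which chance passes in about 1 in 20 groups. Of 54 groups checked these 2 were marked, no more than chance gives. Both genes were counted with near-identical copies as separate entries, and in both the copies' counts in NTg replicate 1 departed in the opposite direction.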

How the results depend on the processing

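Under all 17 alternatives 0 of the 78 ribosomal protein genes were called, and their lowest adjusted p was 0.365, for Rpl10 without Tg replicate 1. Their median log2 fold change lay above 0 throughout, at 0.02 to 0.07 with 1 library left out, while the number of genes above 0 ran from 52 without NTg replicate 1 to 77 without NTg replicate 4. The median minus that of all genes was 0.02 to 0.06. The Rps2 log2 fold change was -0.0043 without NTg replicate 4, 0.08 without NTg replicate 3 and 0.14 with copies added, an alternative chosen after seeing the data. Of the other 24 ribosomal protein genes chosen by the naming rule, 11 changed side of 0 with 1 library left out and 6 with copies added. The count over all genes was less steady than that of the family: 3 were called, but 127 without a filter on low counts, 352 by DESeq2 and 1 with the replicate block. With 1 library left out it ran from 3 to 314, with 16 without NTg replicate 1, 9 without Tg replicate 2 and 314 without Tg replicate 1; the cause was not tested. Deviations of same-numbered libraries correlated at 0.066, -0.032, 0.155 and -0.0089, which gave little sign of pairing by replicate number. Pairing by litter or processing was not examined. The replicate block called 0 of the family, with a median of 0.04.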
